A study of Mus musculus with 4 samples.

Results

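The chemokine and chemokine receptor genes of the mouse were followed in 2 lines of induced pluripotent stem (iPS) cells, in embryonic stem cells (ESC) and in mouse embryonic fibroblasts (MEF). Members were chosen by gene name alone, as every gene printed on the array under a Ccl, Cxcl, Cx3cl, Xcl, Ccr, Cxcr, Cx3cr or Xcr name. This gave 57 genes of 35527, with 37 ligands and 20 receptors, on 70 of 55681 probes.

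The groups were iPS-OSH and iPS-J, both of C57BL/6 background and cell type iPS, ESC of 129SV background and MEF of C57BL/6 background. iPS cells are somatic cells turned to a state like that of ESC, which come from the early embryo. MEF are fibroblasts, the cells that build connective tissue, taken from embryos. The labels do not say how either iPS line was made, whether a line is 1 clone, or whether feeder cells were used. Medium with the cytokine LIF was used for both iPS lines and ESC, and medium without it for MEF. RNA of each population was labelled with Cy3 and read on 1 Agilent array, so the design compares 4 arrays in pairs. With 1 array per population, differences have no replicate check and were given no p-value.

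Chemokines are small secreted proteins that draw leukocytes and other migrating cells along a gradient, and their receptors signal through G proteins. Inflammatory chemokines are switched on by cytokines, interferon or microbial products, partly through the transcription factor NF-kB, in many cells that include fibroblasts. Homeostatic chemokines are made steadily in particular tissues and place cells there, and Cxcl12 with its receptor Cxcr4 guides stem and germ cells in the embryo.

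Signals are given below as scaled signals, which are the scanner's background-subtracted brightness of a probe, divided by the 75th percentile of its array and multiplied by a common level of 1455. A signal that the scanner software did not call well above background is marked as dim and gives only a bound. Probes differ in how well they bind, so levels are compared between arrays for the same probe and not between genes. A gene was compared between a pair of arrays if either of them called it well above background, and it was counted as higher or lower where the difference reached 2-fold. This rule goes by size and not by a test.

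Of the 70 member probes, 6 shared a run of 25 bases with a probe of another gene name, which bears on what their signals hold. They were the brightest probes of Cxcl11, Ccl21a, Ccl21b and Cx3cr1, the last shared with LOC100048875, and a dimmer probe each of Ccl25 and Ccl27a. The brightest Cxcl11 probe carried a stretch of 30 bases (probe bases 14 to 43, on chromosome 5) that also stood in the probes of 5 other gene names, Elk1, F10, Med16, 4930455C21Rik and LOC100044252. The same stretch was found in 8 of 32851 promoter windows, and a run of this kind is typical of the interspersed B1 repeats of the mouse genome. It is printed in capitals, since all of it was shared.

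Cxcl11 probe stretch: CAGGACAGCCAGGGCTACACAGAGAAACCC

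The probes of Ccl21a and Ccl21b, near-identical gene copies on chromosome 4, overlapped over 56 bases with 2 differences and a longest shared run of 43 bases. A stretch of each that holds 1 of these differences is shown, with the differing base in capitals.

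Ccl21a probe stretch: atacctaactgaataaaaaGgtgatccagc
Ccl21b probe stretch: atacctaactgaataaaaaAgtgatccagc

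The promoters of the neutrophil attractants Cxcl1, Cxcl2 and Cxcl3 are shown because these neighbouring genes share an NF-kB match and Cxcl2, unlike the others, was dim on every array. The windows are RefSeq sequences of GRCm38.p6, from 120 to 21 bases before the gene's start, on the plus strand. They lie at chr5:90891125-90891224 for Cxcl1, chr5:90903779-90903878 for Cxcl2 and chr5:90785981-90786080 for Cxcl3. Capitals mark matches to the NF-kB consensus, searched on both strands, where matches on opposite strands overlapped by all but 1 base. The promoter of Cxcl10, an interferon-induced T cell attractant, is shown from 180 to 81 bases before the start, at chr5:92348970-92349069 on the minus strand.

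Cxcl1 promoter: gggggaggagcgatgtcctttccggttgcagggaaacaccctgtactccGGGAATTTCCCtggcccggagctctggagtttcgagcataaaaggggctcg
Cxcl2 promoter: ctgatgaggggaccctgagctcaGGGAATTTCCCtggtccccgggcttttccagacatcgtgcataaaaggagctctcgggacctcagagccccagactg
Cxcl3 promoter: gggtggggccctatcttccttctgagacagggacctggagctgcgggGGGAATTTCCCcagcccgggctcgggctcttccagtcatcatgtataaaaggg
Cxcl10 promoter: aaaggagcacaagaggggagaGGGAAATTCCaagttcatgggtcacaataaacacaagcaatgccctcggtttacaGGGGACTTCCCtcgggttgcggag

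Over windows of 250 bases before to 50 bases after the start, 42 members matched the promoter table, with 46 windows. The NF-kB consensus was present in 11 member windows, or 23.9%, against 8.46% of all 32851 windows. These were the windows of Ccl1, Ccl9, Ccl20, Ccl27a, Ccr1, Ccr3, Ccr6, Cxcl1, Cxcl2, Cxcl3 and Cxcl10. Ccl2, Ccl5, Ccl7 and Ccl11 were among the members without a window, so the share does not cover them. The single form GGGAATTTCC was taken from the windows of Cxcl1, Cxcl2 and Cxcl3, which share it, so their matches were fixed by that choice. Of the other member windows, that of Ccr3 held it. This form stood in 0.0883% of all windows. In Cxcl1, Cxcl2 and Cxcl3 it began 71, 97 and 73 bases before the start. The motif TATAAA stood in 13 member windows (28.3%, against 13.6% of all).

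All 4 arrays lay on 1 slide and were scanned in 3 sessions, the first with MEF, the second with both iPS lines and the third with ESC. Session of scanning, strain and culture medium cannot be told apart from the groups, except between the iPS lines, which share all of them, and MEF shares their strain. Between 67.0% (iPS-J) and 81.7% (MEF) of the 59305 non-control spots were well above background, and the lowest signals so called were 27.6 to 41.0. Spots of probes printed 10 times varied by 0.07 to 0.15 log2 units (SD) above a signal of 100, and by 0.36 to 0.59 below it. The difference of a pair of spots below 100 thus had an SD of 0.62 to 0.79 log2 units, so a 2-fold difference of a weak member is less than 2 such SD. The MEF spots of Ccr3 and Cxcr3 were called uneven and left out, which leaves these receptors without a MEF value.

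The labels were checked against marker genes. All 12 pluripotency markers were well above background on the 3 pluripotent arrays, with summed signals of 562086 on iPS-OSH, 754522 on iPS-J and 797875 on ESC, against 3852 on MEF, where 8 were. Pou5f1, the core factor of pluripotency, had signals of 9714 on iPS-OSH, 13909 on iPS-J and 8236 on ESC, against 68.8 on MEF. Its partners Sox2 and Nanog had 13459, 16355, 19742 and 12.2 (dim) and 74939, 75873, 96539.9 and 151 on the arrays in that order. The 12 fibroblast markers summed to 493055 on iPS-OSH, 94476 on iPS-J and 71349 on ESC, against 1658870 on MEF. The collagen genes Col1a1, Col1a2 and Col3a1 had 55697, 11439, 10731 and 328123, then 131502, 30593, 23522 and 451414, then 9090.1, 2371, 3291 and 138028 on the arrays in the same order. In iPS-OSH 11 of 12 fibroblast markers were at least 2-fold higher than in iPS-J, with a median log2 difference of 2.39.

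Other cell types differed between the lines too. Primitive and visceral endoderm markers summed to 8358 on iPS-OSH, 105067 on iPS-J and 10389 on ESC, against 14469 on MEF, with 668, 13051, 916 and 248 for Gata4, 938, 7418, 690.5 and 1162 for Gata6 and 213, 2893, 424 and 242 for Sox17 in that order of arrays. Endothelial markers summed to 23866 on iPS-OSH, 41706 on iPS-J and 34802 on ESC, against 17197 on MEF, with 892, 824, 1589.9 and 246 for Pecam1, 39.2, 344, 126 and 18.1 (dim) for Cdh5 and 8088, 12430.4, 7037 and 11621 for Kdr. Epithelial markers summed to 38068 on iPS-OSH, 82778 on iPS-J and 63332 on ESC, against 8389 on MEF, with 268, 312, 1019.9 and 662 for Krt5, 439.6, 578, 766 and 424 for Krt14 and 6339, 17733, 6974 and 473 for Krt8. The named endoderm genes and their list's sum were highest on iPS-J, though not all 12 endoderm markers were highest there. On that array 8 of 12 inflammatory CC ligands were lowest, against 44.7% of the members and 28.1% of all genes. A link between endoderm markers and these ligands was not tested.

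Leukocytes were sought as a further source of chemokines, with 13 markers on the array. Their summed signal was 35086 on iPS-OSH, 26384 on iPS-J and 19660 on ESC, against 54982 on MEF. The pan-leukocyte gene Ptprc had 132, 109, 230.4 and 250.1, and the myeloid genes Itgam and Emr1 had 19628, 10279.5, 5179 and 33096 and 512, 211, 351 and 676, on the arrays in the same order. The T cell gene Cd3g was dim on every array, whereas Cd3e, another T cell gene, had 2302, 3046, 3444 and 4373. Of the 13 markers, 12, 11, 11 and 12 were well above background. In such RNA of whole cultures, fewer cells of a type and less RNA per cell cannot be told apart.

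Of the 57 members, 49 were well above background on some array and 28 on all 4 arrays. The iPS-OSH array had 39 such members, iPS-J 32, ESC 40 and MEF 45. Ligands made up 26, 22, 24 and 29 of these, and receptors 13, 10, 16 and 16, in the same order. The 8 members dim on every array were Cxcl2, Cxcl13, Ccl1, Ccl20, Ccl22, Ccl28, Ccr1 and Xcr1, with signals of 5.51 to 35.7. Among members above background, 40 differed at least 2-fold in at least 1 of the 6 comparisons. These differences numbered 144, of which 33 were bounds and 85, in 27 genes, had both signals above 100.

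**Figure D1:**
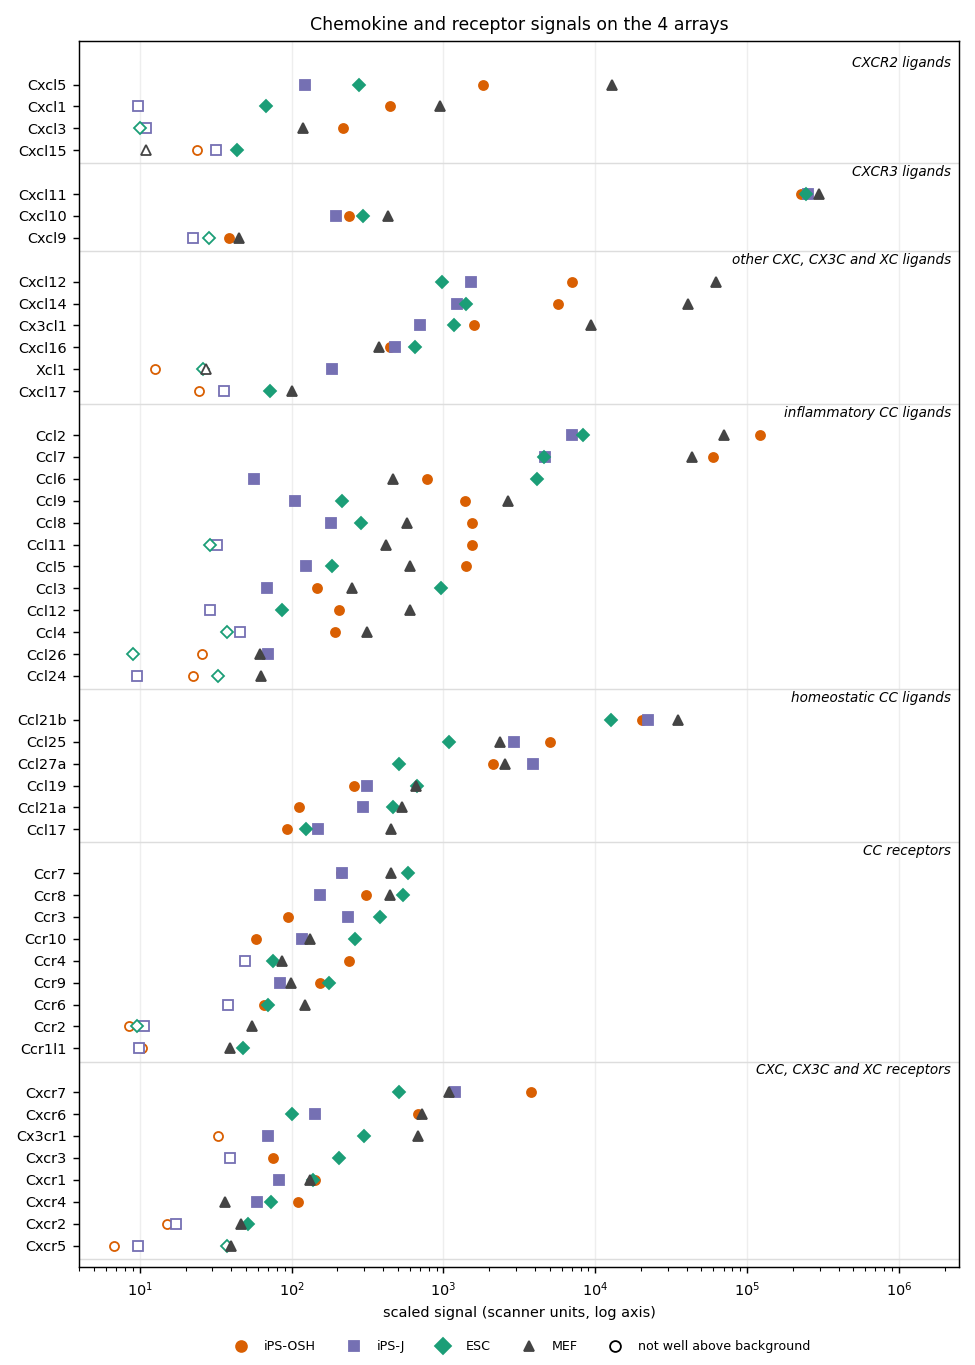
Scaled signal (log axis) of 48 of the 49 members well above background on at least 1 array, with a marker for each of the arrays iPS-OSH, iPS-J, ESC and MEF and open markers for dim signals. Inflammatory CC ligands have their iPS-OSH and MEF markers to the right of iPS-J in most lines, and Cxcl11 has its 4 markers together at 225003 to 295860.

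Relative to MEF, the share of compared members that were lower stood above that of all genes in each pluripotent line with the scaling described. In iPS-OSH 7 of 45 compared members were at least 2-fold higher and 16 lower than in MEF, where 12.8% of all genes were higher and 23.4% lower. With normexp background correction 9 of the 45 were lower. In iPS-J 1 of 44 was higher and 26 lower than in MEF, against 16.7% and 25.3% of all genes. In ESC 3 of 46 were higher and 21 lower than in MEF, against 22.4% and 16.8% of all genes. The median log2 difference of the members was -0.75, -1.41 and -0.74 for iPS-OSH, iPS-J and ESC, where the medians of all genes were -0.32, -0.27 and 0.13. These 3 comparisons share the MEF array.

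Relative to ESC the iPS lines gave unlike counts. In iPS-OSH 18 of 43 members were at least 2-fold higher than in ESC and 10 lower, where 8.89% of all genes were higher and 26.9% lower. In iPS-J 4 of 42 were higher than in ESC and 12 lower, against 5.41% and 24.1% of all genes, so that the lower share (28.6%) was near that of all genes. With quantile normalization or spike-in scaling 6 were higher and 6 lower. Between the lines, 20 of 41 members were higher in iPS-OSH than in iPS-J and 6 lower, against 8.58% and 7.64% of all genes. The members' median log2 difference between iPS-OSH and iPS-J was 0.92, and that of all genes -0.01. Members that could be compared had to be above background on an array of the pair, so these shares describe them and not all 57.

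**Figure D2:**
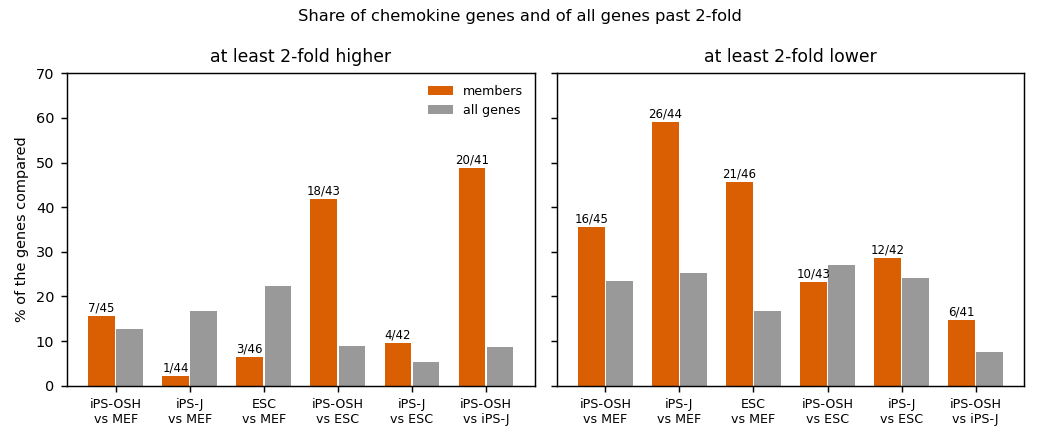
Percent of the compared members (orange, with counts) and of all compared genes (grey) at least 2-fold higher (left) or lower (right) in the first array of each of the 6 pairs. Members stand furthest above all genes for higher calls in iPS-OSH against ESC (18 of 43) and iPS-J (20 of 41), and for lower calls in iPS-J against MEF (26 of 44).

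Each array had its own share of the highest signals. Over 47 members with a value on all 4 arrays, iPS-OSH held the highest signal of 11, iPS-J of 3, ESC of 11 and MEF of 22. Among 31920 genes those shares were 10.8%, 18.4%, 35.7% and 35.1%, against 23.4%, 6.38%, 23.4% and 46.8% of the members. The lowest signal lay on iPS-J for 21 members, or 44.7%, against 28.1% of all genes.

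Scaling moved all genes together and the members with them. The median of all genes ranged widely with the scaling, and in ESC against MEF it was 0.13 with the 75th percentile, -0.39 with spike-in probes and 0.40 with the percentile over probes detected on all arrays. Of the genes past 2-fold in that pair 57.2% were higher by the first scaling, 32.2% by the second and 68.3% by the third. The members' median minus that of all genes kept its sign over the 8 alternatives tried in every comparison. Spike-in scaling, the percentile over detected probes and the deposited value table shift all genes of an array alike. They could thus change this value little, beyond the bounds and which genes were compared. The members' median minus that of all genes was -0.46 to -0.18 in iPS-OSH against MEF, -1.19 to -0.85 in iPS-J against MEF and -1.14 to -0.71 in ESC against MEF. It was 0.19 to 0.70 in iPS-OSH against ESC, -0.56 to -0.14 in iPS-J against ESC and 0.66 to 0.99 in iPS-OSH against iPS-J. The split of member calls in iPS-J against ESC moved most, with 25% of them higher by the 75th percentile and 50% higher by spike-in scaling or by quantile normalization.

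Most inflammatory CC ligands, which draw monocytes, eosinophils and T cells, were high in iPS-OSH and MEF and low in iPS-J. Ccl2, Ccl4, Ccl7 and Ccl11 were about as low in ESC, and Ccl26 was highest in iPS-J. Of 11 inflammatory CC ligands that could be compared, 10 were higher in iPS-OSH than in iPS-J and 1 lower, where 8.58% of all genes were higher and 7.64% lower. The median log2 difference of these ligands was 3.50. In iPS-OSH 8 of 10 were higher than in ESC and 2 lower, where 8.89% of all genes were higher and 26.9% lower. Set against MEF, 3 of 12 were higher in iPS-OSH and 3 lower, where 12.8% of all genes were higher and 23.4% lower. The lower share (25%) was thus near that of all genes. Against MEF, iPS-J had none of 12 higher and 10 lower, with a median of -2.91, where 16.7% of all genes were higher and 25.3% lower. ESC had 2 of 12 higher and 7 lower than MEF, where 22.4% of all genes were higher and 16.8% lower. Against ESC, iPS-J had none of 9 higher and 4 lower, where 5.41% of all genes were higher and 24.1% lower. Among these 9 differences 2 were bounds. Of the 12 above background, iPS-J held the lowest signal of 8 and ESC of 4, where these arrays held that of 28.1% and 19.9% of all genes. The fibroblast markers given above were likewise higher in iPS-OSH than in iPS-J or ESC, and 4 of 12 leukocyte markers were higher in iPS-OSH than in iPS-J. The part of other cell types in these differences was not tested.

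Ccl2, the main monocyte attractant and ligand of Ccr2, was printed 10 times per array, at chr11:81850650-81850709 (mm9, plus strand). Its unflagged spots gave a mean signal of 121620 ± 9027 on iPS-OSH (SD, 10 spots), 7017 ± 400 on iPS-J (8 spots) and 8336 ± 920 on ESC (10 spots), against 70160 ± 6046 on MEF (9 spots). The spots of iPS-OSH and MEF did not overlap, nor did either overlap with those of iPS-J or ESC. Spots share 1 RNA sample, so this spread is technical. From mean log2 values, Ccl2 was 1.74-fold higher in iPS-OSH than in MEF, 14.6-fold higher than in ESC and 17.3-fold higher than in iPS-J.

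The other monocyte attractants of the Ccl2 cluster divided. Ccl7 had signals of 59962 on iPS-OSH, 4675 on iPS-J and 4605 on ESC, against 43408 on MEF, so that it was 12.8-fold higher in iPS-OSH than in iPS-J, with iPS-J and ESC at nearly the same level. Ccl8, a ligand of Ccr8 in the mouse, had 1548 on iPS-OSH, 181 on iPS-J and 287 on ESC, against 571 on MEF. It was 2.71-fold higher in iPS-OSH than in MEF and 8.57-fold higher than in iPS-J. Ccl12, a mouse ligand of Ccr2, had 206 on iPS-OSH, 28.9 (dim) on iPS-J and 85.8 on ESC, against 602 on MEF. This gene was highest in MEF, 2.92-fold lower in iPS-OSH than in MEF and 2.40-fold higher than in ESC.

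The eotaxins Ccl11, Ccl24 and Ccl26 draw eosinophils through Ccr3. Ccl11 had 1533 on iPS-OSH, 32.5 (dim) on iPS-J and 29.0 (dim) on ESC, against 418 on MEF. It was well above background on iPS-OSH and MEF alone, 3.67-fold higher in iPS-OSH than in MEF, and at least 39.2-fold higher than in ESC. Ccl24 had 22.5 (dim) on iPS-OSH, 9.64 (dim) on iPS-J and 32.7 (dim) on ESC, against 62.8 on MEF, and Ccl26 had 25.6 (dim) on iPS-OSH, 69.7 on iPS-J and 9.01 (dim) on ESC, against 61.8 on MEF. Both were near background wherever they were detected, so their differences lie in the range where spots vary most.

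Ccl3, Ccl4 and Ccl5 draw monocytes and T cells. Ccl5 had 1405 on iPS-OSH, 124 on iPS-J and 186 on ESC, against 599 on MEF, and was 2.35-fold higher in iPS-OSH than in MEF, 7.57-fold higher than in ESC and 11.3-fold higher than in iPS-J. Ccl4 had 192 on iPS-OSH, 46.0 (dim) on iPS-J and 37.7 (dim) on ESC, against 316 on MEF, and was detected on iPS-OSH and MEF alone. Ccl3 had 146 on iPS-OSH, 68.6 on iPS-J and 956 on ESC, against 248 on MEF, and was highest in ESC, 3.85-fold higher there than in MEF and 13.9-fold lower in iPS-J than in ESC. Ccl3 and Ccl4 overlap each other in the reference table, yet on ESC Ccl3 had its highest signal and Ccl4 was dim.

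Ccl6 and Ccl9, rodent chemokines that act on Ccr1, lie next to each other on chromosome 11. Ccl9 had 1380.2 on iPS-OSH, 105 on iPS-J and 213 on ESC, against 2671 on MEF, and was 25.5-fold lower in iPS-J than in MEF and 12.5-fold lower in ESC than in MEF. Ccl6 had 773 on iPS-OSH, 56.3 on iPS-J and 4123 on ESC, against 467 on MEF. It was 8.84-fold higher in ESC than in MEF, 73.2-fold lower in iPS-J than in ESC and 5.33-fold lower in iPS-OSH than in ESC. Thus Ccl6 and Ccl3 were the 2 ligands of the group that were higher in ESC than in any other population.

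**Figure D3:**
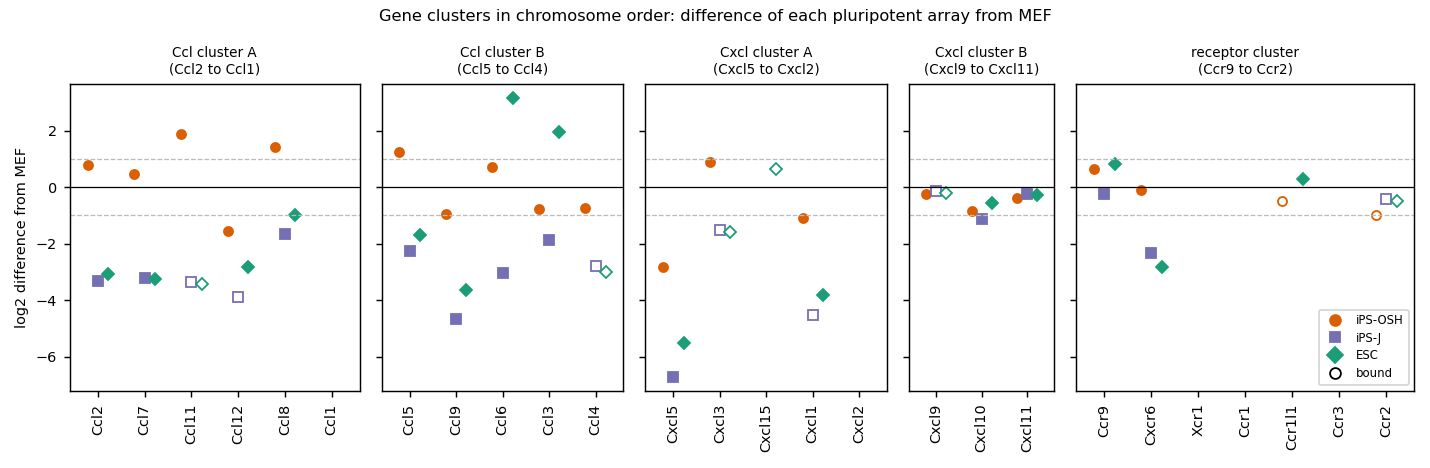
Log2 difference of iPS-OSH, iPS-J and ESC from MEF for the members of 5 gene clusters in chromosome order, where open markers are bounds and dashed lines mark 2-fold. For Ccl2 the markers lie at 0.80 (iPS-OSH), -3.32 (iPS-J) and -3.08 (ESC), and the ESC markers of Ccl6 (3.14) and Ccl3 (1.95) lie above 0 while that of their neighbour Ccl9 lies at -3.65.

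Neighbouring genes were set side by side, since many chemokine genes arose by duplication. The cluster of 6 genes (Ccl2 to Ccl1) spans 139.6 kb of chromosome 11 between probes and the cluster of 5 (Ccl5 to Ccl4) 138.8 kb. In the first, iPS-OSH held the highest signal for Ccl2, Ccl7, Ccl11 and Ccl8 and MEF for Ccl12. In the second, the highest array was iPS-OSH for Ccl5, ESC for Ccl6 and Ccl3, and MEF for Ccl9 and Ccl4. The cluster of 5 Cxcl genes (Cxcl5 to Cxcl2) spans 144.1 kb of chromosome 5.

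Among the ligands of Cxcr2, which draw neutrophils, Cxcl5 and Cxcl1 were highest in MEF and Cxcl3 in iPS-OSH. Cxcl5 had 1812 on iPS-OSH, 122 on iPS-J and 279 on ESC, against 12842 on MEF, with every pluripotent line lower than MEF, iPS-OSH 7.09-fold lower and iPS-J 105-fold lower. Cxcl1 had 447 on iPS-OSH, 9.76 (dim) on iPS-J and 67.4 on ESC, against 953 on MEF, and was 2.13-fold lower in iPS-OSH and 14.1-fold lower in ESC than in MEF. Cxcl3 had 219 on iPS-OSH, 10.9 (dim) on iPS-J and 10.0 (dim) on ESC, against 118 on MEF, above background on iPS-OSH and MEF alone, and under 2-fold apart between them (log2 difference 0.89). All 3 ligands of this group that could be compared were higher in iPS-OSH than in iPS-J, where 8.58% of all genes were higher and 7.64% lower. For Cxcl1 and Cxcl3, dim on iPS-J, the difference is a bound and could only have gone in this direction. Cxcl15, a lung chemokine, had 23.8 (dim) on iPS-OSH, 31.5 (dim) on iPS-J and 43.7 on ESC, against 11.1 (dim) on MEF, so that its differences are bounds and none could be placed past 2-fold.

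Cxcl2, which holds the same GGGAATTTCCC as Cxcl1 and Cxcl3, was dim on every array, at 5.51 (dim) on iPS-OSH, 9.82 (dim) on iPS-J and 9.42 (dim) on ESC, against 6.22 (dim) on MEF. Its match began 97 bases before the start, against 71 and 73 bases in Cxcl1 and Cxcl3. Whether this position bears on the signal was not tested, and Cxcl2 has 1 probe, printed once, whose binding was not tested either.

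Ligands of Cxcr3, which interferon induces, had 1 difference past 2-fold among them. Cxcl10 had 240.0 on iPS-OSH, 197 on iPS-J and 294 on ESC, against 428 on MEF, and that difference was in iPS-J against MEF (2.18-fold lower). Cxcl9 had 38.8 on iPS-OSH, 22.5 (dim) on iPS-J and 28.5 (dim) on ESC, against 45.3 on MEF, close to the lowest signals called above background. A second Cxcl9 probe had 19.0 (dim) on iPS-OSH, 15.8 (dim) on iPS-J and 47.3 on ESC, against 47.6 on MEF. The brightest Cxcl11 probe, which carries the shared stretch, had 225003 on iPS-OSH, 252637 on iPS-J and 245490.0 on ESC, against 295860.0 on MEF, and the highest was under 2-fold above the lowest. The 5 other probes with that stretch had signals of 3758 to 677369, and the other Cxcl11 probe had 12736 on iPS-OSH, 12092 on iPS-J and 12204 on ESC, against 8813 on MEF.

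Cxcl12, Cxcl14 and Cx3cl1 were highest in MEF, with iPS-OSH next. Cxcl12, which binds Cxcr4 and Cxcr7, had 6972 on iPS-OSH, 1522 on iPS-J and 973 on ESC, against 62757 on MEF. Every pluripotent line was lower than MEF, iPS-OSH 9.0-fold lower, iPS-J 41.2-fold lower and ESC 64.5-fold lower. A second Cxcl12 probe had 5503 on iPS-OSH, 829 on iPS-J and 555 on ESC, against 20142 on MEF, with log2 differences from MEF of -1.87, -4.60 and -5.18, so that both probes gave the same order. Cxcl14, a chemokine of epithelia and fibroblasts, had 5639 on iPS-OSH, 1224 on iPS-J and 1416 on ESC, against 40852 on MEF, and was 7.24-fold lower in iPS-OSH, 33.4-fold lower in iPS-J and 28.8-fold lower in ESC than in MEF. Fractalkine, Cx3cl1, which is anchored in the membrane and binds Cx3cr1, had 1581 on iPS-OSH, 696 on iPS-J and 1177 on ESC, against 9327 on MEF. It was 13.4-fold lower in iPS-J and 5.90-fold lower in iPS-OSH than in MEF.

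The remaining ligands of this mixed group had other patterns. Cxcl16, also membrane-anchored and the ligand of Cxcr6, had 447 on iPS-OSH, 478 on iPS-J and 651 on ESC, against 375 on MEF, under 2-fold in every comparison. Cxcl17, a mucosal chemokine, had 24.4 (dim) on iPS-OSH, 35.7 (dim) on iPS-J and 72.3 on ESC, against 101 on MEF. Xcl1 (lymphotactin), which binds Xcr1, was above background on iPS-J alone, at 12.6 (dim) on iPS-OSH, 185 on iPS-J and 26.2 (dim) on ESC, against 27.2 (dim) on MEF, and was at least 4.72-fold higher in iPS-J than in ESC. It was the 1 member at least 2-fold higher in iPS-J than in MEF (at least 6.60-fold higher), and it has 1 probe, printed once.

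Homeostatic CC ligands did not share the pattern of the inflammatory ones. None of 6 was at least 2-fold higher in iPS-OSH than in iPS-J, and 1 was lower, where 8.58% of all genes were higher and 7.64% lower. With 6 genes these counts do not set the group apart from all genes. Ccl25, the thymic and gut ligand of Ccr9, had 5019.7 on iPS-OSH, 2922 on iPS-J and 1095 on ESC, against 2356 on MEF, with iPS-OSH 2.13-fold higher than MEF and ESC 2.15-fold lower. Another Ccl25 probe, detected on every array and sharing a run with a probe of another name, gave 406, 338, 362 and 228 in the same order of arrays. ESC was thus lower than MEF by the brightest probe and higher by this one. The remaining Ccl25 probe gave 30.6 (dim), 43.4 (dim), 184 and 53.9, with ESC again above MEF and both iPS lines below ESC and MEF.

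Ccl27a, the skin chemokine that binds Ccr10, had 2124 on iPS-OSH, 3870.2 on iPS-J and 506 on ESC, against 2552 on MEF. Its ESC signal was 5.04-fold lower than MEF, and iPS-J was 7.65-fold higher than ESC and iPS-OSH 4.20-fold higher. All 3 Ccl27a probes, of which a pair overlap in position, gave ESC as the lowest array, and the gene overlaps Il11ra1 in the reference table. Ccl19, a ligand of Ccr7 in lymph nodes, had 258 on iPS-OSH, 311 on iPS-J and 666 on ESC, against 658 on MEF, and by this probe both iPS lines were over 2-fold lower than ESC or MEF. Another Ccl19 probe gave 331, 157, 491 and 279 in the same order of arrays, with iPS-OSH above MEF (log2 difference 0.25) and under 2-fold from ESC. The median over probes gave -0.11 for iPS-OSH against MEF, where the brightest probe gave -1.35.

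The Ccl21 copies, whose probes nearly coincide, gave unlike patterns. Ccl21a had 111 on iPS-OSH, 294 on iPS-J and 463 on ESC, against 535 on MEF, and was 4.16-fold lower in iPS-OSH than in ESC. Ccl21b had 20153 on iPS-OSH, 22324 on iPS-J and 12714 on ESC, against 34899.9 on MEF, with ESC 2.75-fold lower than MEF. Signals of these copies are uncertain, since the overlap of their probes differs by 2 bases. Ccl17, a ligand of Ccr4, had 92.7 on iPS-OSH, 149 on iPS-J and 124 on ESC, against 454 on MEF, and was 4.89-fold lower in iPS-OSH, 3.05-fold lower in iPS-J and 3.66-fold lower in ESC than in MEF.

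Among the receptors, Cxcr7, now named Ackr3, stood out in iPS-OSH. This atypical receptor takes up Cxcl12 without signalling through G proteins. Its signals were 3754 on iPS-OSH, 1199 on iPS-J and 512 on ESC, against 1087 on MEF, so that iPS-OSH was 3.45-fold higher than MEF, 7.33-fold higher than ESC and 3.13-fold higher than iPS-J, and ESC was 2.12-fold lower than MEF. Cxcr4, the signalling receptor of Cxcl12, had weak signals of 111 on iPS-OSH, 58.7 on iPS-J and 72.7 on ESC, against 36.3 on MEF, and iPS-OSH was 3.05-fold higher than MEF. The ligand Cxcl12 thus had its highest signal on MEF, where Cxcr4 had its lowest.

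Cxcr6, the receptor of Cxcl16 on T and natural killer cells, had 674 on iPS-OSH, 143 on iPS-J and 101 on ESC, against 717 on MEF. It was 6.70-fold higher in iPS-OSH than in ESC and 4.70-fold higher than in iPS-J, and within 2-fold of MEF. A second probe, which overlaps the first in position, gave 372 on iPS-OSH and 412 on MEF and was dim on iPS-J (42.6) and ESC (42.6). Cxcr6 overlaps Fyco1 in the reference table, and which transcript gave the signal was not tested. Cx3cr1, the fractalkine receptor of monocytes and microglia, had 32.9 (dim) on iPS-OSH, 70.2 on iPS-J and 299 on ESC, against 679.6 on MEF, and was 9.69-fold lower in iPS-J than in MEF. Its probe is the one that shares a run with LOC100048875, and a second probe was dim on both iPS lines, with 127 on ESC against 109 on MEF.

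CC receptors are carried mainly by leukocytes. Set against MEF, 1 of 9 was higher and 3 lower in iPS-OSH, where 12.8% of all genes were higher and 23.4% lower. None of 8 was higher and 4 were lower in iPS-J (16.7% and 25.3% of all genes), and none of 9 was higher and 1 was lower in ESC (22.4% and 16.8%). Ccr7, the lymph node homing receptor, had 211 on iPS-OSH, 213 on iPS-J and 585 on ESC, against 452 on MEF, with both iPS lines over 2-fold lower than ESC or MEF. Ccr8 had 308 on iPS-OSH, 153 on iPS-J and 542 on ESC, against 446 on MEF, and was 3.55-fold lower in iPS-J than in ESC. A second Ccr8 probe had 33.3 (dim) on iPS-OSH, 26.4 (dim) on iPS-J and 14.9 (dim) on ESC, against 52.1 on MEF.

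Ccr4, a receptor of type 2 helper T cells, was highest in iPS-OSH, at 237 on iPS-OSH, 49.0 (dim) on iPS-J and 75.6 on ESC, against 86.7 on MEF, and was 2.74-fold higher there than in MEF. Ccr10, the receptor of Ccl27a and Ccl28, had 58.1 on iPS-OSH, 117 on iPS-J and 262 on ESC, against 132 on MEF, and Ccr3, the eotaxin receptor, had 94.5 on iPS-OSH, 233 on iPS-J and 384 on ESC. Ccr10 was highest in ESC, as was Ccr3 over the 3 arrays with a value, with iPS-OSH 4.52-fold lower and 4.07-fold lower than ESC in that order of genes. Ccr6 had 65.4 on iPS-OSH, 38.3 (dim) on iPS-J and 70.3 on ESC, against 123 on MEF, and Ccr9, the receptor of Ccl25, had 154 on iPS-OSH, 83.9 on iPS-J and 176 on ESC, against 98.6 on MEF. Cxcr3 had 74.8 on iPS-OSH, 39.5 (dim) on iPS-J and 204 on ESC.

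The receptors Ccr2, Ccr1l1, Cxcr1, Cxcr2 and Cxcr5 were above background on at least 1 array and had no difference placed past 2-fold. Except for Cxcr1, some or all of their differences are bounds, which do not limit how large a difference was. Ccr2, the receptor of Ccl2, Ccl7 and Ccl12, was above background on MEF alone, at 54.9. Cxcr2, the receptor of Cxcl1, Cxcl3 and Cxcl5, had 15.1 (dim) on iPS-OSH, 17.3 (dim) on iPS-J and 51.6 on ESC, against 46.5 on MEF.

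Members lower in ESC than in MEF were followed in iPS-OSH beside fibroblast markers with the same difference. At least 4-fold lower in ESC than in MEF were 13 members, and iPS-OSH had 0.111 to 3.67 of their MEF signal, with a median of 0.517, and 3 of the 13 (23.1%) were above MEF. The 12 fibroblast markers, each of which met the same threshold, had 0.0659 to 2.53 of the MEF signal in iPS-OSH, with a median of 0.283, and 1 of them, the matrix proteoglycan Dcn, was above MEF. Over all 2093 genes with that difference the median was 0.352, and 3.01% were above MEF. In iPS-J the medians were 0.0747 for the members, 0.0607 for the fibroblast markers and 0.150 for all such genes.

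**Figure D4:**
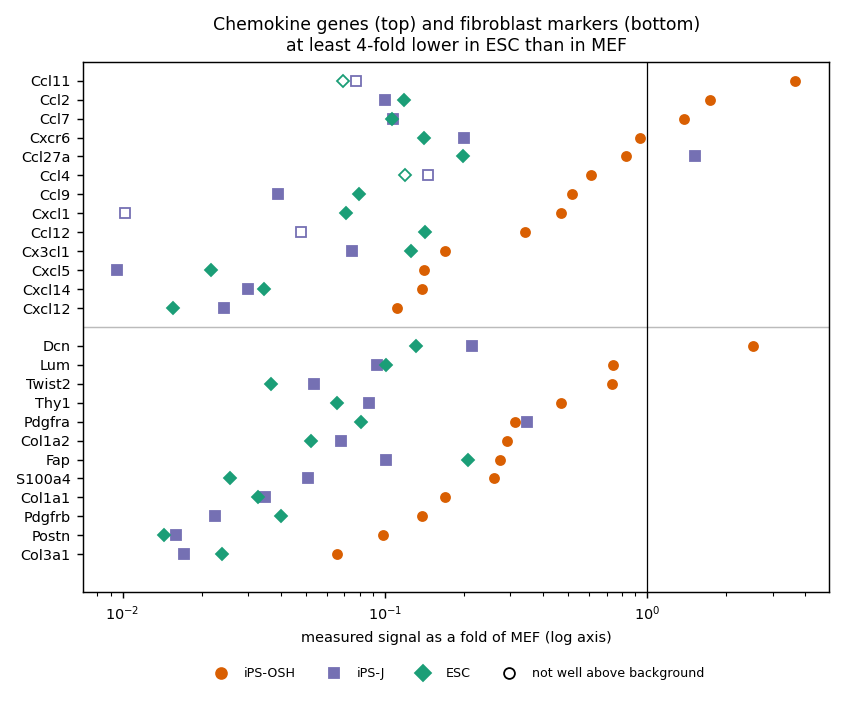
Signal of iPS-OSH, iPS-J and ESC as a fold of MEF (log axis) for the 13 members and 12 fibroblast markers at least 4-fold lower in ESC than in MEF, with open markers for dim signals. Ccl11, Ccl2 and Ccl7 lie above 1 in iPS-OSH (3.67 for Ccl11), Cxcl12 lies lowest of the members in iPS-OSH (0.111), and Ccl27a alone lies above 1 in iPS-J.

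Cytokine and NF-kB genes, which act upstream of inflammatory chemokines, were compared with MEF in the same way. Of 26 compared, none was higher and 7 lower than MEF in iPS-OSH, none higher and 16 lower in iPS-J, and 1 higher and 15 lower in ESC. Their medians were -0.57, -1.29 and -1.07 on the log2 scale, in that order of lines. Of all genes, 12.8% were higher and 23.4% lower than MEF in iPS-OSH, 16.7% and 25.3% in iPS-J, and 22.4% and 16.8% in ESC. In iPS-OSH the list's lower share was thus near that of all genes, and these shares also stand behind the counts of the 4 lists that follow. In iPS-OSH 8 of 26 were higher than in iPS-J and none lower, where 8.58% of all genes were higher. The interleukin 6 gene Il6 had 1179 on iPS-OSH, 56.3 on iPS-J and 212 on ESC, against 1798 on MEF. The interleukin 1 receptor Il1r1 had 1429 on iPS-OSH, 162 on iPS-J and 279 on ESC, against 10259 on MEF. The endotoxin receptor Tlr4 and the tumour necrosis factor receptor Tnfrsf1a had 232, 17.2 (dim), 113 and 437 (Tlr4) and 10528, 3807, 2735 and 40502 (Tnfrsf1a) on the arrays in that order. All 4 genes were highest in MEF with iPS-OSH next.

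Interferon receptors and factors had 2 of 15 genes higher and 5 lower in iPS-OSH than in MEF, 2 of 16 higher and 8 lower in iPS-J, and 2 of 15 higher and 8 lower in ESC. Of all genes, 12.8% were higher and 23.4% lower in iPS-OSH, 16.7% and 25.3% in iPS-J, and 22.4% and 16.8% in ESC. Irf7, an interferon-induced factor, had 436 on iPS-OSH, 47.7 (dim) on iPS-J and 98.6 on ESC, against 149 on MEF, highest in iPS-OSH. The interferon gamma receptor chains Ifngr2 and Ifngr1 had 9224, 2664, 1689.7 and 13319.9 (Ifngr2) and 3581, 2164, 1675 and 9287 (Ifngr1), and the kinase Jak2 had 1786, 1276, 1066 and 6393, on the arrays in the same order, all highest in MEF.

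The CXC chemokines Ppbp and Pf4, known from platelets and outside the name rule, had 973, 73.4, 53.4 (dim) and 2072 (Ppbp) and 1725, 227, 197 and 4111 (Pf4) on iPS-OSH, iPS-J, ESC and MEF in that order, highest in MEF with iPS-OSH next. The scavenging receptors Ackr4 and Ackr1 (Ccrl1 and Darc on the array) had 36.4, 57.9, 46.7 and 186 (Ackr4) and 133, 179, 526 and 407 (Ackr1) in the same order. Of 11 genes, 1 was higher and 5 lower in iPS-OSH than in MEF, 2 higher and 6 lower in iPS-J, and, of 10, 2 higher and 3 lower in ESC. The higher and lower shares of all genes were 12.8% and 23.4% in iPS-OSH, 16.7% and 25.3% in iPS-J, and 22.4% and 16.8% in ESC.

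Of the enzymes and proteins that cleave or hold chemokines, the 4 with the widest range are given. The stromelysin Mmp3 had 3549 on iPS-OSH, 359 on iPS-J and 285 on ESC, against 247 on MEF, and the collagenase Mmp13 had 637 on iPS-OSH, 19.7 (dim) on iPS-J and 45.0 (dim) on ESC, against 124 on MEF. Dpp4, which trims Cxcl12 and other chemokines, had 1327 on iPS-OSH, 2806 on iPS-J and 819 on ESC, against 89.5 on MEF, and Mmp14 had 3100.4 on iPS-OSH, 567 on iPS-J and 381 on ESC, against 7668 on MEF. Of 15 genes, 4 were higher and 4 lower in iPS-OSH than in MEF, 1 higher and 7 lower in iPS-J, and 2 higher and 8 lower in ESC. The higher and lower shares of all genes were 12.8% and 23.4% in iPS-OSH, 16.7% and 25.3% in iPS-J, and 22.4% and 16.8% in ESC.

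Genes of signalling below the receptors were compared for 24 members in iPS-OSH against MEF, with 5 higher and 3 lower, and for 23 in iPS-J and ESC, with 4 higher and 8 lower in iPS-J and 4 higher and 7 lower in ESC. The higher and lower shares of all genes were 12.8% and 23.4% in iPS-OSH, 16.7% and 25.3% in iPS-J, and 22.4% and 16.8% in ESC. Rgs16, which ends G protein signals, had 29364 on iPS-OSH, 3197 on iPS-J and 2616 on ESC, against 9654 on MEF, and was highest in iPS-OSH. Its relative Rgs2 had 1468 on iPS-OSH, 403 on iPS-J and 992 on ESC, against 2669.8 on MEF. The receptor kinase Adrbk2 and the arrestin Arrb2 had 313, 514, 664 and 96.2 (Adrbk2) and 2626, 2939, 3464 and 790.0 (Arrb2) in the same order of arrays, lowest in MEF.

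Members with more than 1 probe allowed a check of the chosen one. For 10 members with several probes, 37 of the 2-fold differences had another probe above background, which went in the same direction in 29. The probes of Cxcr6, and a pair of those of Ccl27a, overlap in position, so their agreement is not independent. The exceptions include Ccl25, described above.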

How the data were processed

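RNA of 4 populations was labelled with Cy3 and hybridized to 1-colour Agilent arrays of 60-base probes, 1 array per group, per the labels. Each spot's intensity in the deposited scanner output is background-subtracted and detrended by Agilent Feature Extraction 10.5.1.1 and not normalized between arrays, per the file headers. The headers place probes on mm9, and exon positions were not used here. The deposited value table holds the same intensity rounded to whole numbers or 3 digits, within 0.497% of the scanner output, with no centring.

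Spots called uneven or outlying (203 to 531 per array) were left out. The processed intensity was divided by the 75th percentile of each array, which was 1564 (iPS-OSH), 1241 (iPS-J), 1307 (ESC) and 1765 (MEF), and log2 values of a probe's spots were averaged. Each gene name was represented by its brightest probe. Where a gene was well above background on 1 array of a pair, the difference was taken against the higher of the lowest signal well above background and the dim signal itself, and genes with no difference left were not compared. Calls are 2-fold differences, with no test, since 1 array per group allows none and the number of arrays limits precision. The procedure was tested on simulated data.

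Every member above background on at least 1 array was named except 1, which is not reported here. Of each pathway list the 4 genes with the widest range were named, and of each cell type list the first 3 detected. Dcn, Cd3e and Cd3g were named in addition. Members and lists were chosen with earlier results of these data known. The alternatives were normexp correction with offset 50 (limma 3.58.1), quantile normalization, a percentile over the probes above background on every array, 10 spike-in probes as the scale, both arrays above background, no filter, the median over probes and the deposited value table. Leaving out Cxcl11 and Ccl21b was added after seeing the data. Values were computed with Python 3.11.15 and R 4.3.3. Promoter sequences are from RefSeq, GRCm38.p6.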

Additional observations from a re-analysis of the deposited data

Results flagged for a closer look

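For 7 members, 1 pluripotent line was at least 2-fold higher than MEF and another at least 2-fold lower. The difference between lines was not tested, since each has 1 array. Values are log2 differences from MEF in iPS-OSH, iPS-J and ESC, in that order. Ccl11 had 1.88, -3.35 and -3.42, where the last 2 are bounds. Ccl5 had 1.23, -2.27 and -1.69, and Ccl8 had 1.44, -1.66 and -0.99. For these 3 ligands iPS-OSH was above MEF and the other lines below it. Ccl6 had 0.73, -3.05 and 3.14, and Ccl3 had -0.76, -1.86 and 1.95, with ESC above MEF and iPS-J below it. Cxcr7 had 1.79, 0.14 and -1.09, and Ccl25 had 1.09, 0.31 and -1.11, with iPS-OSH above MEF and ESC below it. The direction of Ccl25 in ESC turned with the probe used. Its weakest probe, dim on both iPS lines, also gave iPS-OSH below MEF.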

How the results depend on the processing

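Of the 144 member differences of at least 2-fold, 97 stayed past 2-fold under each of the 8 alternatives that gave a value. Over 1118 recomputed values, 1028 kept direction and threshold, 88 fell under 2-fold and 2 turned direction. Both were Ccl25 with the median over its probes, at 0.67 in ESC against MEF and -0.10 in iPS-J against ESC, where another probe then sets the value. The values kept include 111 with detection on both arrays and 144 with no filter. Those could not change, since these settings leave measured differences as they are and only widen bounds. The median over probes can change only members with several probes. Counts of members at least 2-fold higher or lower moved by over 1.5 times as follows, and the cause was not tested. With normexp correction, 9 (16 by the chosen setting) were lower in iPS-OSH than in MEF, 6 (12) in iPS-J than in ESC and 3 (6) in iPS-OSH than in iPS-J. With quantile normalization, iPS-J had 2 (1) above MEF and 6 (12) below ESC, a count that was also 6 with spike-in scaling. With the percentile over probes detected on all arrays, 6 (3) were higher in ESC than in MEF. With detection on both arrays, which compares fewer genes, iPS-J had 0 (1) above MEF, and 3 (6) were lower in iPS-OSH than in iPS-J. With no filter, which adds dim genes, iPS-J had 2 (1) above MEF and ESC 6 (3), with 16 (10) lower in iPS-OSH than in ESC and 20 (12) lower in iPS-J than in ESC. The deposited table gave 3 (6) lower in iPS-OSH than in iPS-J. Without Cxcl11 and Ccl21b, chosen after seeing the data, no count moved by over 1.5 times. No paired analysis was possible because each group has 1 array. Signals near background limit the weak members, and no value has a biological replicate.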
